A study of Mus musculus with 69 samples.

Results

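Activity-regulated early response genes are the genes that neurons switch on within minutes to hours of firing. A list of 37 of them was followed across all 69 libraries of the study. The members were found by symbol, through the Ensembl identifiers of the count table, and all 37 were among its 17634 genes. The rule takes them by name and reads no measured value, but the list itself was written with earlier results of these data known. Each library held ribosome-bound mRNA of cortical neurons from mice 70 to 100 days old of both sexes. Fmr1 KO mice lack FMRP, the RNA-binding protein whose loss causes fragile X syndrome, and were compared with WT mice. In PV-Cre-Rpl22HA/HA mice the HA tag on ribosomal protein RPL22 was switched on by a parvalbumin (PV) Cre, which is active in fast-spiking inhibitory interneurons. In Camk2a-Cre-Rpl22HA/HA mice it was switched on by a Camk2a Cre, which is active mainly in excitatory pyramidal cells. Both genotypes carried the tag and a Cre, so every KO and WT library came from a tagged animal. Primary visual cortex (V1) and primary somatosensory cortex (S1) of an animal gave separate libraries. PV libraries came from 10 KO and 10 WT animals in V1, and from 10 KO and 10 WT animals in S1. Camk2a libraries came from 6 KO and 8 WT animals in V1, and from 7 KO and 8 WT animals in S1. The animal is the replicate, and 32 of the 37 animals gave both areas. The labels name no stimulation of any group, and the values describe the cortex at the time of dissection. Per the labels' protocols, that was after isoflurane anaesthesia and perfusion with an ice-cold choline solution.

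When a neuron fires, calcium enters through NMDA receptors and voltage-gated channels and activates kinases of the CaMK and ERK pathways. These act on transcription factors that are already present, among them CREB, SRF with its ELK partners, and MEF2, which bind CRE, CArG and MEF2 elements in target promoters. The first wave of targets needs no new protein. Not every member of the list belongs to that wave. The list holds further transcription factors (the AP-1, EGR and NR4A families and Npas4) and inhibitors that feed back on the signalling (Dusp1, Dusp6, Sik1). It also holds proteins that act at the synapse or are secreted (Arc, Bdnf, Nptx2, Inhba, Vgf, Scg2). In visual cortex these mRNAs are known to rise with light after darkness, and excitatory and inhibitory cells are known to induce partly different sets.

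Promoter windows show how the letters of these elements are spread over the list. RefSeq promoters of GRCm38.p6, from 250 bases before to 50 bases after each start, were available for 28 of the 37 members. None was available for Egr1, Egr3, Arc, Ier2, Nptx2, Sik1, Trib1, Vgf and Bhlhe40, and elements outside the window were not searched. The letters of a full CRE, TGACGTCA, were searched on both strands and were found for 5 of the 28 members (17.9%), namely Btg2, Dusp1, Maff, Plk2 and Scg2, against 2.03% of 27025 genes. The core of the CRE, TGACG, was found for 21 members (75.0%), against 23.05% of genes, and each full CRE counts as 2 overlapping cores, 1 on each strand. A CArG box, the SRF element, was found for 1 member, Egr2 (3.6% against 1.81%). The AP-1 letters, TGANTCA, were found for 2 members, Bdnf and Csrnp1 (7.1% against 8.97%), and the EGR letters, GCGTGGGCG, for 1, Maff (3.6% against 0.71%). The letters TATAAA, added after the data had been seen, were found for 6 members (21.4% against 15.67%). Genes have unequal numbers of promoters, and a match is only a match of letters.

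The first 4 windows below are shown because they hold a full CRE or a CArG box, and that of Fos because Fos is described most below. The Fos window was added after its values had been seen. Each is read 5′ to 3′ on the gene's strand from RefSeq, GRCm38.p6, with the matched letters in capitals. Positions count from the start, with the base before it as -1. Capitals mark the CRE at -68 in Scg2 (chr1:79439977-79440276, minus strand), at -62 in Plk2 (chr13:110394794-110395093, plus strand) and at -143 in Dusp1 (chr17:26508423-26508722, minus strand). They mark the CArG box at -72 in Egr2 (chr10:67537619-67537918, plus strand). In Fos (chr12:85473640-85473939, plus strand) they mark 2 CRE cores and, nearer the start, the TATA letters at -33.
Scg2: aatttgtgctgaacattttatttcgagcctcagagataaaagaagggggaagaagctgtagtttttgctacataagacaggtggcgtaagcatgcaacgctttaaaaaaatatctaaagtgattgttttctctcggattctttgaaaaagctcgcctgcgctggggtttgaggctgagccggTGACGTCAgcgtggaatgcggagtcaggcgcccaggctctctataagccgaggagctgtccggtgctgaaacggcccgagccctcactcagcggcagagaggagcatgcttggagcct
Plk2: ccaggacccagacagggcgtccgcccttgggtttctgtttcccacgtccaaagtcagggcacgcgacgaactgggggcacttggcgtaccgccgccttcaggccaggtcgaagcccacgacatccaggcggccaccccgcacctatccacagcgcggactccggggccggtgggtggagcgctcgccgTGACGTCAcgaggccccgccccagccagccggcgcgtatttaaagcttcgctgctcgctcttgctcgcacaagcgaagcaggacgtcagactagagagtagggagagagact
Dusp1: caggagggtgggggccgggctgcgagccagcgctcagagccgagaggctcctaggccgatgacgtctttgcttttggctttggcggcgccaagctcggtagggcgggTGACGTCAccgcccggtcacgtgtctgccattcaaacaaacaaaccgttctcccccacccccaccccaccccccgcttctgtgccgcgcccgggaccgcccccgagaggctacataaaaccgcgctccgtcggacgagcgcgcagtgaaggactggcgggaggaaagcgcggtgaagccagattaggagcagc
Egr2: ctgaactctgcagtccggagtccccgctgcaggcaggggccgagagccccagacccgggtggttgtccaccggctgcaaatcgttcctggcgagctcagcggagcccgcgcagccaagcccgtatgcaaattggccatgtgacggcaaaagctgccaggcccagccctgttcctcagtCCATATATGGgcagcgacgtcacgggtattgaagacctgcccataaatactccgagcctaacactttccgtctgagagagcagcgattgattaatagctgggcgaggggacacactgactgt
Fos: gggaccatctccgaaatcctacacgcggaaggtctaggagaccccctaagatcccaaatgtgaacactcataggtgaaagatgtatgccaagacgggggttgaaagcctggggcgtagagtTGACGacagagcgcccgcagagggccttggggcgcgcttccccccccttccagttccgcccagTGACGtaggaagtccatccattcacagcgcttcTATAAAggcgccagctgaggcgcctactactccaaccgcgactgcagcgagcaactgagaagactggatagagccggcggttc

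Library totals ran between 27.64 and 49.11 M estimated counts (the median library had 38.77 M). Fmr1 fell in every KO comparison, by 2.05 and 2.18 on the log2 scale in PV V1 and S1 and by 3.31 and 3.15 in Camk2a V1 and S1. Marker sums matched the labelled class. A sum over 9 PV interneuron markers lay between 7959.03 and 11352.58 CPM (counts scaled to a common library total) in PV libraries, against 209.68 to 1679.95 CPM in Camk2a libraries. A sum over 8 excitatory markers lay between 1046.53 and 2210.52 CPM in PV libraries, against 12465.61 to 16070.35 CPM in Camk2a libraries, so PV libraries held some excitatory mRNA. The Camk2a animals C3 (KO), C18 and C19 (both WT) had PV marker sums between 622.11 and 1679.95 CPM. Several libraries went against their area label on a score of genes that separate the areas in the other animals of the class, which is positive on the V1 side. The V1 libraries of the KO animals P9 (-0.95) and P24 (-0.88), the WT animal P22 (-1.72) and the Camk2a WT animal C24 (-0.94) lay on the S1 side, and that of the KO animal P11 lay near 0 (-0.15). The S1 libraries of P9 (0.29), P22 (0.21) and C24 (1.02) lay on the V1 side, and the S1 library of C24 was the only one of Batch 2. For the genotype, area and covariation results of PV cells, and for those results of Camk2a cells that moved most, values without these animals are given beside the others. P9, P22, P24 and C24 were picked by area scores of these same libraries. Leaving them out therefore favours a difference between V1 and S1, and area tests without them are descriptions only.

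The members spanned a wide range of levels, and the order of the levels differed between the classes. Per kilobase of exon, the highest mean levels in PV WT V1 were those of the secretory granule genes Scg2 (237.2 CPM per kb) and Vgf (166.3), followed by Egr1 (54.91), Arc (41.73) and Fos (32.86). In Camk2a WT V1 the highest were Egr1 (366.6 CPM per kb), Arc (300.9), Vgf (211.0), Egr3 (148.3) and Scg2 (126.6). The lowest in Camk2a WT V1 were the transcription factors Klf4 (0.1316 CPM per kb), Maff (0.1816) and Atf3 (0.3937). Over all libraries Atf3 had 0 to 150 estimated counts, Maff 0 to 96 and Klf4 4 to 293. Of the 37 members 35 passed the filter on low counts in the genotype test of Camk2a S1 and in the area tests of Camk2a cells, where Atf3 and Maff were not tested, and 37 passed it elsewhere. The spans of some members overlap genes on the opposite strand, among them Jun (Junos), Junb (Prdx2), Dusp1 (Ergic1), Bdnf (Gm45346), Inhba (B230303A05Rik) and Bhlhe40 (0610040F04Rik). Those of Dusp1 (AC122252.1 and AC122252.4) and Csrnp1 (Cx3cr1) overlap genes on the same strand. Overlap of exons was not checked. Reads from exons that overlap on opposite strands may not be told apart, since no strand setting of the counting is given.

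Animals of 1 group differed by large factors. The median over the members of the highest over the lowest library was 5.15 in PV KO V1 and 4.54 in PV WT V1, against 2.02 to 3.48 in the other 6 groups, though single members such as Inhba and Trib1 spread more in Camk2a KO V1, and the widest ratio, 123, was that of the scarce Atf3 in Camk2a WT V1. Fos, the AP-1 subunit most used as a mark of firing, had a lowest, median and highest level of 2.71, 32.5 and 134 CPM in PV KO V1, against 3.81, 76.0 and 135 CPM in PV WT V1. In PV S1 it had 4.74, 8.19 and 33.0 CPM in KO, against 5.85, 15.9 and 42.7 CPM in WT. The KO and WT ranges overlapped, and the lowest PV V1 libraries were those of P9 in KO and P22 in WT, both with a negative area score. In Camk2a V1 Fos had 33.1, 79.6 and 156 CPM in KO, against 52.4, 84.2 and 197 CPM in WT. In Camk2a S1 it had 34.5, 58.5 and 86.5 CPM in KO, against 41.9, 64.4 and 105 CPM in WT, again with overlap. Around its group means Fos had an SD of 1.04 log2 units, and its relative Fosb 1.05. Plk2, a kinase that scales synapses down after sustained firing, had the smallest such SD of the 37 members, 0.19, followed by Ier5 with 0.23.

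**Figure D1:**
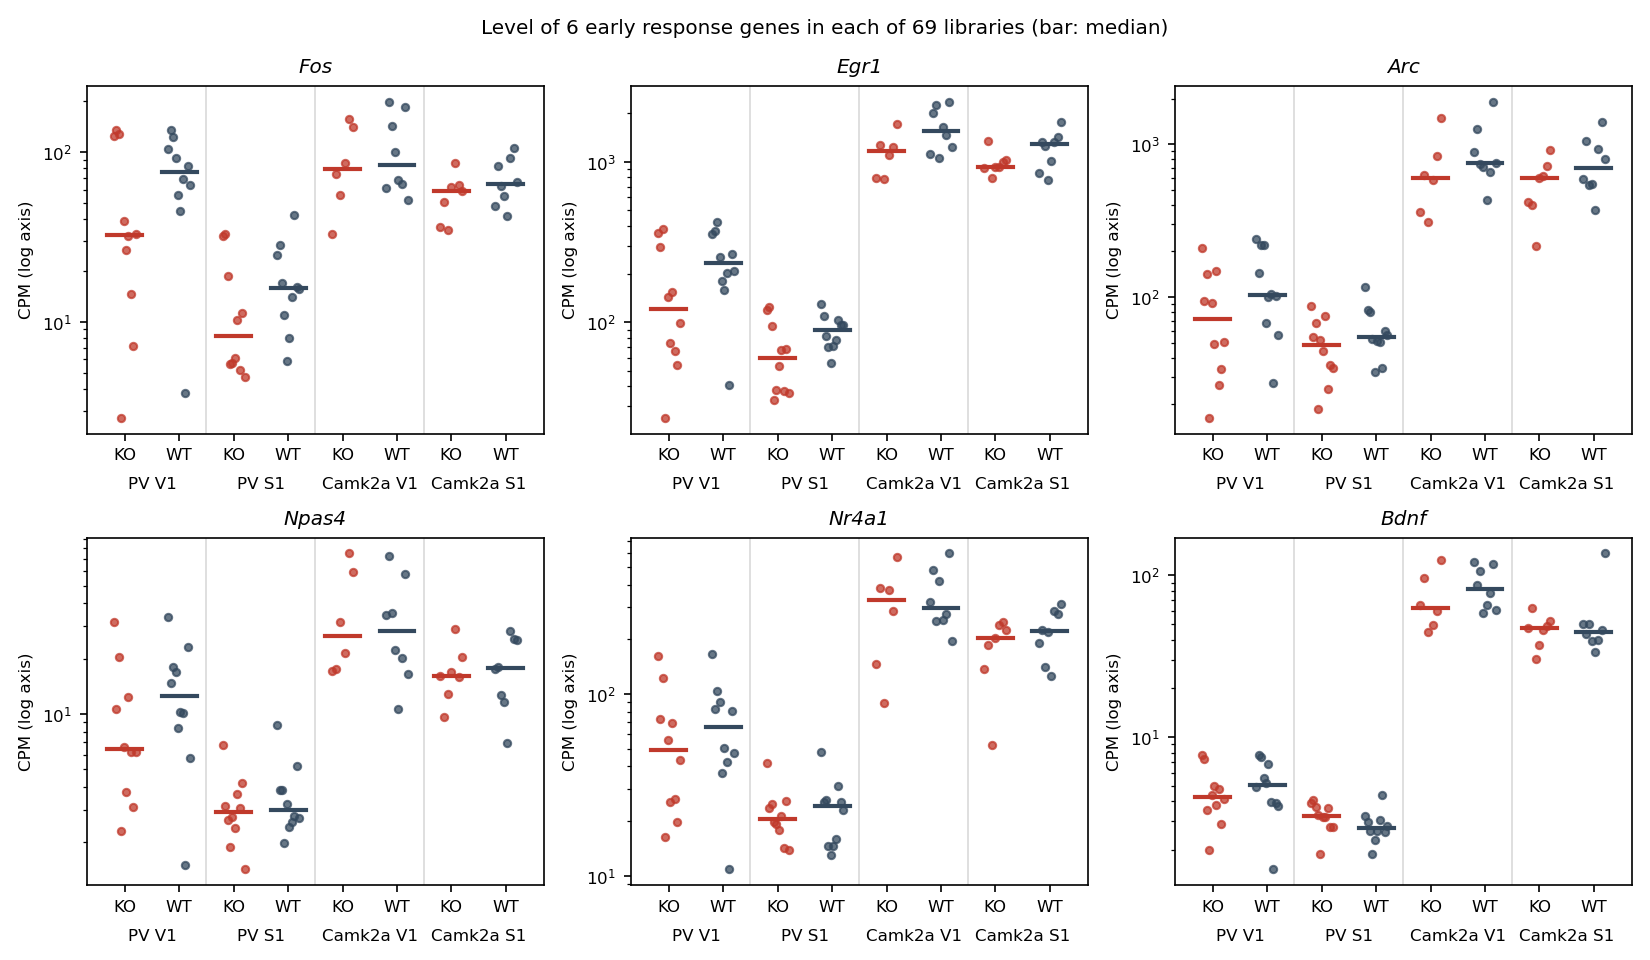
Level of Fos, Egr1, Arc, Npas4, Nr4a1 and Bdnf (CPM, log axis) in each of the 69 libraries, in 8 groups of class, area and genotype with KO left of WT. Points are libraries and bars are medians. KO and WT points overlap in every pair, and Bdnf shows the widest gap between the classes, with at most 7.74 CPM in any PV library and at least 30.3 CPM in any Camk2a library.

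In PV interneurons no early response gene passed the test between KO and WT mice, although the estimates in V1 all lay below 0. V1 libraries whose area score was negative were unevenly spread here, with P9, P24 and, near 0, P11 among KO and P22 among WT. Their part in the estimates was not tested, beyond the values without P9, P22 and P24. The fitted log2 fold change in V1 was negative for 37 of 37 members, with a median of -0.37, against -0.00 over all genes tested. Without P9, P22 and P24 it was negative for 36 and positive for 1, with a median of -0.30 and 0 members called. Most members varied together from library to library (median r 0.495 within groups). Counts of signs, here and below, are therefore not counts of independent observations. With edgeR's quasi-likelihood test and Benjamini-Hochberg adjustment 0 members were called at an adjusted p under 0.05, against 0.191% of all genes. DESeq2 called 0 members as well, and 5 had an unadjusted p under 0.05, against 7.82% of all genes. Inhba, a subunit of the secreted factor activin A, had the smallest p. Its lowest, median and highest levels were 1.69, 2.46 and 3.52 CPM in KO, against 1.98, 3.96 and 5.66 CPM in WT. In 10 of 10 KO libraries it was below the WT mean, though the groups overlapped (log2 fold change -0.55, SE 0.18, adjusted p 0.352). Trib1, a pseudokinase that directs protein degradation, had 9.88, 13.7 and 18.5 CPM in KO, against 9.93, 20.9 and 23.8 CPM in WT. Its KO libraries were below the WT mean in 10 of 10, again with overlap (log2 fold change -0.41, SE 0.16, adjusted p 0.459). Nfil3, a basic leucine zipper repressor, had 6.30, 8.40 and 16.1 CPM in KO, against 7.22, 12.0 and 17.6 CPM in WT (log2 fold change -0.43, SE 0.16, adjusted p 0.448). Gadd45g, a stress sensor of the GADD45 family, had a fitted difference of -0.34 (SE 0.15, adjusted p 0.546), with 10 of 10 KO libraries below the WT mean. Atf3, a stress-induced AP-1 partner, had -0.88 (SE 0.32, adjusted p 0.4) with 9 of 10.

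The classical markers of firing had wide errors in PV V1. Egr1, a zinc-finger factor, had 25.4, 122 and 380.1 CPM in KO, against 40.9, 233 and 419.9 CPM in WT, a fitted difference of -0.58 (SE 0.48, adjusted p 0.856). Arc, a capsid-like protein that promotes removal of AMPA receptors, had 16.1, 71.2 and 209 CPM in KO, against 27.3, 103 and 239 CPM in WT, a fitted difference of -0.53 (SE 0.49, adjusted p 0.885). Npas4, a calcium-induced factor that governs inhibitory synapses, had 2.30, 6.43 and 31.6 CPM in KO, against 1.51, 12.5 and 33.9 CPM in WT, a fitted difference of -0.47 (SE 0.53, adjusted p 0.915). For all 3 the KO and WT ranges overlapped over most of their width. Fos had a fitted difference of -0.54 (SE 0.63, adjusted p 0.915), the orphan nuclear receptor Nr4a1 -0.19 (SE 0.49, adjusted p 0.97), and the neurotrophin Bdnf -0.15 (SE 0.26, adjusted p 0.946). Leaving out single animals moved the estimate for Fos between -0.97 (without P7) and -0.38 (without P9), and that for Nr4a1 between -0.48 (without P5) and 0.01 (without P1).

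In PV S1 the estimates were negative for 35 and positive for 2 of 37 members, with a median of -0.19, against 0.01 over all genes. Here too 0 members were called with edgeR, against 0.77% of all genes, DESeq2 called 0, and 5 had an unadjusted p under 0.05, against 12.3% of all genes. Without P9, P22 and P24 31 estimates were negative and 6 positive, with a median of -0.14. Trib1 had 7.63, 12.0 and 15.0 CPM in KO, against 11.9, 14.4 and 16.8 CPM in WT (log2 fold change -0.27, SE 0.10, adjusted p 0.234). Egr2, an EGR factor, had 0.160, 0.596 and 1.49 CPM in KO, against 0.306, 1.05 and 3.17 CPM in WT (log2 fold change -0.95, SE 0.40, adjusted p 0.328). The groups overlapped for both. Nptx2, a pentraxin that gathers AMPA receptors at excitatory inputs of PV cells, was below the WT mean in 10 of 10 KO libraries (log2 fold change -0.33, SE 0.16, adjusted p 0.406), and its estimate was -0.18 without the WT animal P22. Jun had -0.20 (SE 0.085, adjusted p 0.331) and Sik1, which inhibits the CREB coactivators, -0.32 (SE 0.14, adjusted p 0.374). Fos had -0.51 (SE 0.39, adjusted p 0.657), Egr1 -0.43 (SE 0.24, adjusted p 0.507), Arc -0.32 (SE 0.29, adjusted p 0.714), Npas4 -0.23 (SE 0.28, adjusted p 0.811) and Nr4a1 -0.10 (SE 0.25, adjusted p 0.927). Bdnf was 1 of the 2 members with a positive estimate, at 0.21 (SE 0.13, adjusted p 0.579). Without P1 the estimates were positive for Npas4 (0.03) and Nr4a1 (0.12).

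When both libraries of an animal were summed, for 9 KO and 10 WT animals, 0 of 37 members were called in PV cells, against 1.36% of all genes, 10 had an unadjusted p under 0.05, against 11.9% of all genes, and the median was -0.37, against 0.01. Without P9, P22 and P24 5 had an unadjusted p under 0.05, and the median was -0.29. Bhlhe40, a transcription repressor that acts on the circadian clock, averaged 48.2 ± 3.98 CPM in KO and 56.6 ± 6.26 CPM in WT (SD), with 9 of 9 KO animals below the WT mean (log2 fold change -0.22, SE 0.061, adjusted p 0.0792). Trib1 had -0.39 (SE 0.11, adjusted p 0.102), Atf3 -0.72 (SE 0.24, adjusted p 0.17), Scg2 -0.19 (SE 0.066, adjusted p 0.188) and Inhba -0.37 (SE 0.13, adjusted p 0.226). DESeq2 called 2 members, against 469 of 17154 genes, namely Bhlhe40 (adjusted p 0.0288) and Trib1 (adjusted p 0.0183). Fos had -0.90 (SE 0.49, adjusted p 0.517) and Egr1 -0.80 (SE 0.37, adjusted p 0.397). In bulk libraries, fewer cells with an mRNA and less of it in each cell cannot be told apart.

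**Figure D2:**
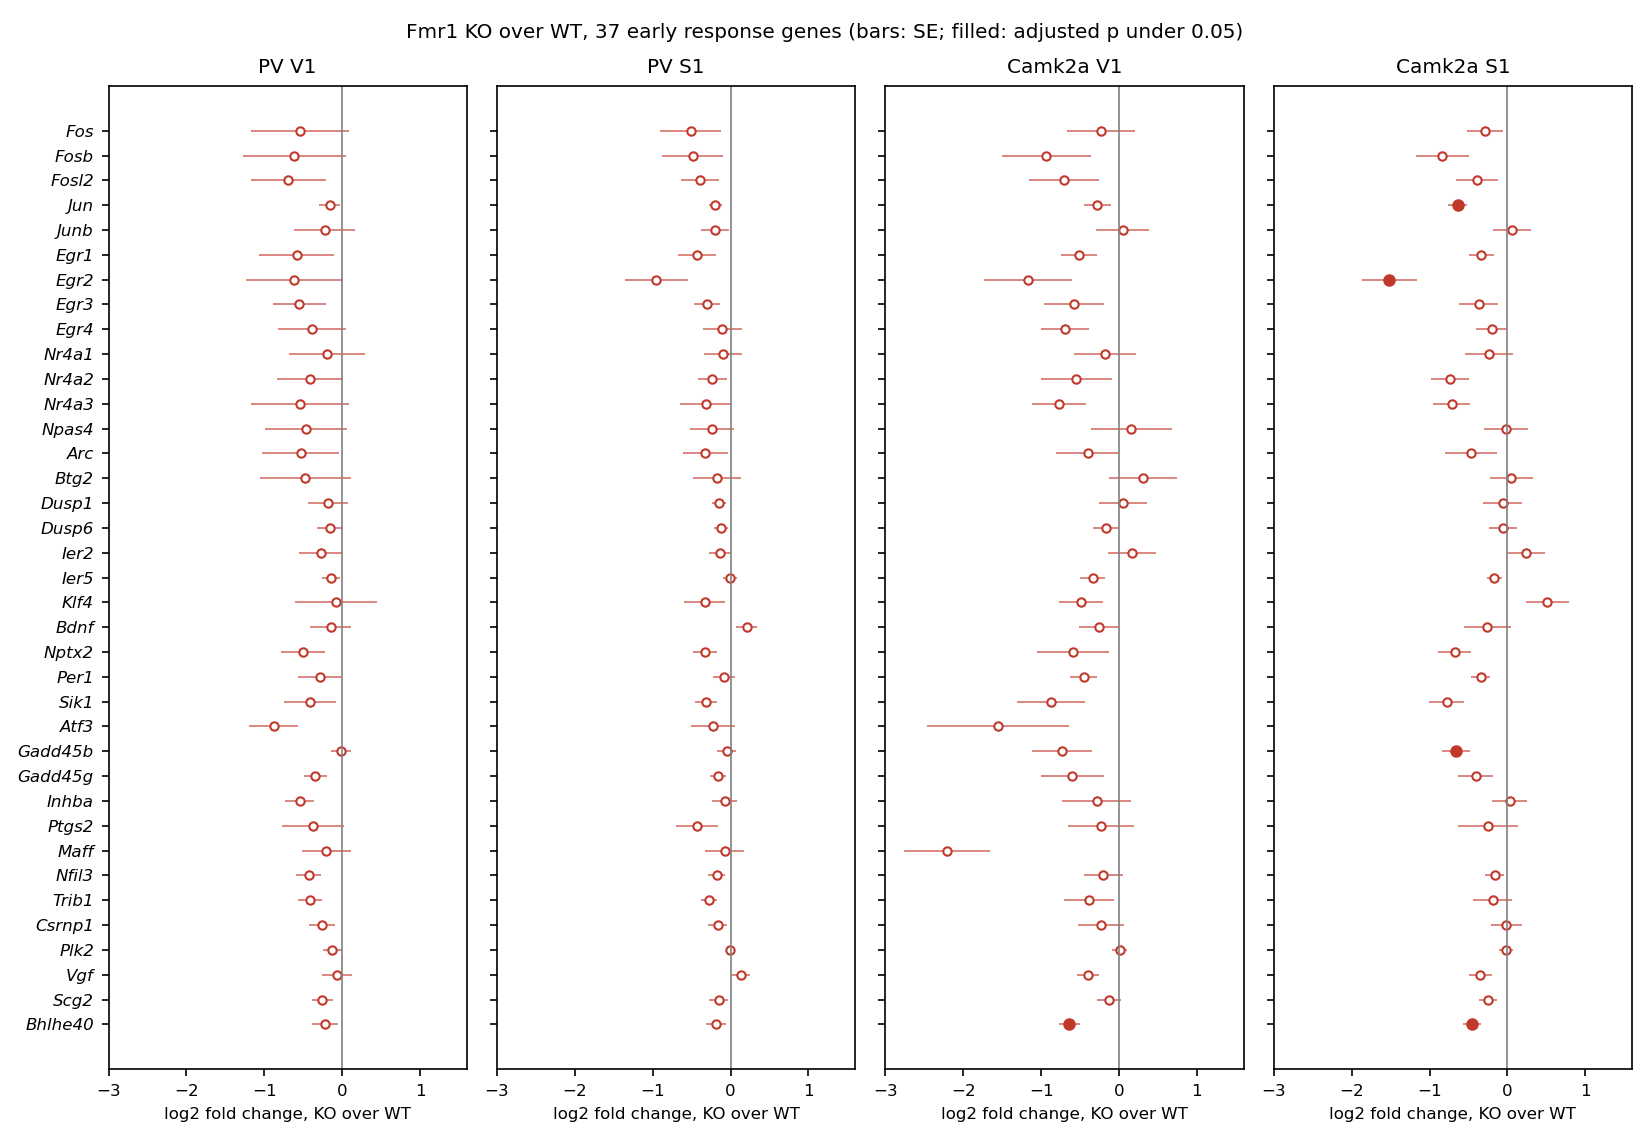
Fitted log2 fold change, KO over WT, of each member in PV V1, PV S1, Camk2a V1 and Camk2a S1 (x axis, bars are SE), with 1 row per gene. Filled points have an adjusted p under 0.05. No PV point is filled, 1 is filled in Camk2a V1 (Bhlhe40) and 4 in Camk2a S1 (Jun, Egr2, Gadd45b and Bhlhe40), all to the left of 0.

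In Camk2a neurons a few members were lower in KO mice, and Fos, Arc, Npas4, Nr4a1 and Bdnf were not among them. In V1 only Bhlhe40 was called lower, 1 of 37 members, against 0.784% of all genes called lower. It had 169.8, 202 and 255 CPM in KO, against 228, 319 and 414 CPM in WT. It was below the WT mean in 6 of 6 KO libraries, with an overlap of the groups (log2 fold change -0.64, SE 0.13, adjusted p 0.0381). The adjusted p lay between 0.0287 and 0.105 when single animals were left out, and it was 0.0797 without the PV-rich animals C3, C18 and C19. Estimates were negative for 31 and positive for 6 of 37 members, with a median of -0.40, against -0.00 over all genes, and 7 had an unadjusted p under 0.05, a share near the 18.2% of all genes. Egr1 had 786, 1164 and 1726 CPM in KO, against 1052, 1558 and 2361 CPM in WT (log2 fold change -0.51, SE 0.23, adjusted p 0.267). Fos had -0.24 (SE 0.44), Arc -0.40 (SE 0.41), Npas4 0.16 (SE 0.52), Nr4a1 -0.18 (SE 0.40) and Bdnf -0.26 (SE 0.26), and these groups overlapped. Single animals turned some of these estimates, to 0.03 for Fos without C3, to -0.16 for Npas4 without C7 and to 0.02 for Nr4a1 without C5.

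In Camk2a S1 4 of 35 members were called lower in KO and 0 higher, against 2.09% of all genes called lower. Jun, the central AP-1 partner, had 26.6, 32.0 and 39.1 CPM in KO, against 33.8, 51.9 and 61.6 CPM in WT, with 7 of 7 KO libraries below the WT mean. Its log2 fold change was -0.64 (SE 0.12, adjusted p 0.00908), and it was called whichever animal was left out, with an adjusted p between 0.000644 and 0.0303. Egr2 had 4.36, 7.02 and 13.4 CPM in KO, against 9.0, 20.8 and 44.4 CPM in WT (log2 fold change -1.52, SE 0.36, adjusted p 0.0313). Gadd45b, the GADD45 member tied to DNA demethylation after activity in hippocampal neurons, had groups that did not overlap, while those of the other called members did. It had 5.79, 10.48 and 11.4 CPM in KO, against 11.8, 14.5 and 25.0 CPM in WT. Its call was narrow (log2 fold change -0.66, SE 0.18, adjusted p 0.0497), and the adjusted p was 0.0558 without the filter on low counts. Bhlhe40 had 191, 237 and 305 CPM in KO, against 223, 335 and 380.4 CPM in WT (log2 fold change -0.46, SE 0.11, adjusted p 0.0315). When single animals were left out, the adjusted p ranged between 0.0211 and 0.0749 for Egr2, between 0.0346 and 0.109 for Gadd45b and between 0.0116 and 0.0772 for Bhlhe40. Estimates were negative for 30 and positive for 5 members, with a median of -0.26, against -0.00 over all genes, and 12 had an unadjusted p under 0.05, against 21.9% of all genes. Without C24 the median was -0.17, 11 estimates were positive, and that of Bdnf was 0.06. The others did not pass, among them Egr1 at -0.34 (SE 0.16), Arc at -0.47 (SE 0.33), Fos at -0.29 (SE 0.23), Bdnf at -0.26 (SE 0.30), Nr4a1 at -0.24 (SE 0.31) and Npas4 at -0.02 (SE 0.28).

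Over both areas of 6 KO and 7 WT Camk2a animals, 2 of 37 members were called lower, against 2.05% of all genes. Bhlhe40 averaged 221 ± 35.4 CPM in KO and 328 ± 54.4 CPM in WT (SD), with 6 of 6 KO animals below the WT mean (log2 fold change -0.58, SE 0.12, adjusted p 0.0243). Maff, a small Maf factor, averaged 0.0983 ± 0.0699 CPM in KO and 0.325 ± 0.147 CPM in WT, at the low end of what these libraries resolve (log2 fold change -1.73, SE 0.39, adjusted p 0.0279). The low-count minimum was reached by 2 of 6 KO and 7 of 7 WT animals, so Maff was tested only through its WT level, and nothing is read from its call. Its adjusted p was 0.0941 without C3, C18 and C19. With single animals left out, the adjusted p ranged between 0.00615 and 0.0673 for Bhlhe40 and between 0.00622 and 0.0673 for Maff. Some markers of other cells differed with genotype in these libraries. The PV interneuron markers had a median log2 fold change of -1.08 over both areas, with 8 of 9 negative and 0 called. Of 7 astrocyte markers Aldoc (-0.84, adjusted p 0.00193) and Aldh1l1 (-0.35, adjusted p 0.0357) were called lower, while the other 5 had positive estimates and the median of the list was 0.14. Of 6 oligodendrocyte markers 5 were negative (median -0.27), with Mbp, which compacts myelin, called at -0.41 (adjusted p 0.0336). Of 8 vascular markers 5 were negative (median -0.14), with Tagln, of vessel walls, called at -1.89 (adjusted p 0.00628). A sum over 6 oligodendrocyte markers lay between 218.04 and 328.52 CPM in KO V1, against 268.76 to 438.9 CPM in WT V1. Their part in the members' estimates was not tested, beyond the values without C3, C18 and C19.

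The genotype effect itself was then compared between classes and between areas. Over both areas edgeR called 0 members as different between PV and Camk2a cells, against 0.832% of all genes. DESeq2 called 1, against 267 of 17547 genes. In edgeR's test 3 members had an unadjusted p under 0.05, against 12.6% of all genes. Those 3 were Maff (PV minus Camk2a difference 1.57, SE 0.44, adjusted p 0.0892), Bhlhe40 (0.36, SE 0.13, adjusted p 0.216) and Gadd45b (0.61, SE 0.27, adjusted p 0.348), named after their values were seen. For Fos the difference was -0.52 (SE 0.66), for Egr1 -0.30 (SE 0.46), for Arc -0.04 (SE 0.61) and for Bdnf 0.16 (SE 0.28). The test of V1 against S1 called 0 members in PV cells, against 0% of all genes, and 0 had an unadjusted p under 0.05. In Camk2a cells it called 0 members, against 0% of all genes, and 1, Klf4, had an unadjusted p under 0.05. DESeq2 called 0 members in both. These fits took single libraries and ignored that most animals gave both areas. With the animal as a block 0 members were called in either class. An unadjusted p under 0.05 was then found for 0 members in PV, against 367 of 16785 genes, and for 4 in Camk2a, against 1140 of 16283 genes. With the block and without C24 it was found for 10 in Camk2a, against 1408 of 16214 genes, and 0 were called.

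The largest differences of the list lay between the classes. In WT V1 25 of 37 members were lower in PV than in Camk2a libraries, against 37.5% of all genes called lower, and 4 were higher, against 39.8%. The median log2 fold change, PV over Camk2a, was -1.79, against 0.03 over all genes. In WT S1 31 were lower, against 38.1% of all genes, and 5 higher, against 39.1%, with a median of -2.20 against 0.02. In KO V1 25 were lower, against 35.9%, and 5 higher, against 38.3%, with a median of -1.85. In KO S1 29 were lower, against 37.9%, and 5 higher, against 39.8%, with a median of -2.24. In each of these tests Klf4, Atf3 and Maff passed the filter on low counts only through their PV level. They are among the members counted here, and nothing is read from their calls. Excitatory markers had median log2 fold changes of -3.68 in WT V1 and -3.98 in WT S1.

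The widest gaps in V1 were those of Nptx2, Bdnf, Egr3 and Ptgs2. Nptx2 had 3.14, 7.97 and 14.2 CPM in PV WT V1, against 86.8, 157 and 325 CPM in Camk2a WT V1 (log2 fold change -4.32, SE 0.35, adjusted p 9.06e-09). Bdnf had 1.51, 5.07 and 7.74 CPM in PV WT V1, against 58.5, 82.2 and 120.3 CPM in Camk2a WT V1 (log2 fold change -4.04, SE 0.26, adjusted p 1.87e-10). Ptgs2, the inducible cyclooxygenase, had 0.437, 2.32 and 4.98 CPM in PV WT V1, against 14.3, 31.9 and 71.1 CPM in Camk2a WT V1 (log2 fold change -3.70, SE 0.38, adjusted p 1.45e-07). The groups did not overlap for these genes, and each value was below the median of the excitatory markers. PV libraries held some excitatory mRNA, and its part in the PV levels of these genes, and in their genotype and area estimates, was not tested. Among the EGR factors Egr3 had -3.76 (SE 0.32), Egr2 -3.45 (SE 0.48) and Egr1 -2.72 (SE 0.34). Arc had -2.79 (SE 0.39), Nr4a1 -2.22 (SE 0.39) and Npas4 -1.21 (SE 0.47, adjusted p 0.0283). In WT S1 Nptx2 had -4.66 (SE 0.23), Egr3 -4.34 (SE 0.22), Bdnf -4.26 (SE 0.29), Ptgs2 -4.23 (SE 0.45) and Nr4a2 -4.07 (SE 0.22), the largest negative values of the list there.

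Fos stood apart from most members in V1. It averaged 77.3 ± 38.6 CPM in PV WT V1 and 109 ± 58.0 CPM in Camk2a WT V1 (SD), with overlapping groups and a fitted difference of -0.48 (SE 0.45, adjusted p 0.336). In WT S1 it averaged 18.3 ± 10.95 CPM in PV and 69.2 ± 22.1 CPM in Camk2a libraries, a fitted difference of -2.10 (SE 0.33, adjusted p 2.43e-05). KO libraries gave -0.78 (SE 0.78, adjusted p 0.381) in V1 and -2.23 (SE 0.45, adjusted p 0.000316) in S1. Other members that did not pass in WT V1 were Ier2 (-0.37, SE 0.26), Dusp1 (0.19, SE 0.24), Sik1 (-0.53, SE 0.30), Btg2 (-1.03, SE 0.55), Fosl2 (-0.84, SE 0.42), Vgf (-0.26, SE 0.19) and Gadd45g (-0.02, SE 0.28).

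Apart from members tested only through their PV level, Scg2 and Gadd45g were called higher in PV cells. Scg2, which gives rise to secretoneurin, had 346, 594 and 778 CPM in PV WT V1, against 255, 298 and 439 CPM in Camk2a WT V1 (log2 fold change 0.96, SE 0.13, adjusted p 2.79e-06), with overlapping groups. It was also higher in WT S1 (0.79), KO V1 (0.74) and KO S1 (0.86). Gadd45g was higher in PV cells in WT S1, at 0.72 (SE 0.17, adjusted p 0.000527), and in KO S1, at 1.00 (SE 0.17, adjusted p 2.09e-05). In KO V1 it had 0.42 (SE 0.17, adjusted p 0.0381), a call lost without the sex term (adjusted p 0.0685) and without C3, C18 and C19 (adjusted p 0.0851). Klf4, a zinc-finger factor that vascular cells also make, had 0.531, 1.24 and 5.27 CPM in PV WT V1, against 0.241, 0.401 and 0.723 CPM in Camk2a WT V1 (log2 fold change 2.21, SE 0.40, adjusted p 5.08e-05). Atf3 had 1.05, 2.63 and 3.76 CPM in PV WT V1, against 0.0268, 0.362 and 3.30 CPM in Camk2a WT V1 (log2 fold change 1.605, SE 0.59, adjusted p 0.0206, and an adjusted p of 0.0501 without C3, C18 and C19). The low-count minimum had to be reached in 8 libraries in WT V1. It was reached in 7 of 8 Camk2a libraries for Klf4, in 5 of 8 for Atf3 and in 6 of 8 for Maff, against 10 of 10 PV libraries for each. In WT S1 it was reached in 4, 1 and 0 of 8 Camk2a libraries for Klf4, Atf3 and Maff. These genes were thus tested only through their PV level, and nothing is read from their calls. A sum over 8 vascular markers lay between 12.86 and 39.59 CPM in PV WT V1, against 8.36 to 11.55 CPM in Camk2a WT V1. A sum over 7 microglial markers lay between 12.19 and 30.08 CPM in PV WT V1, against 4.8 to 7.2 CPM in Camk2a WT V1. Their part in the levels of Klf4 and Atf3 was not tested.

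**Figure D3:**
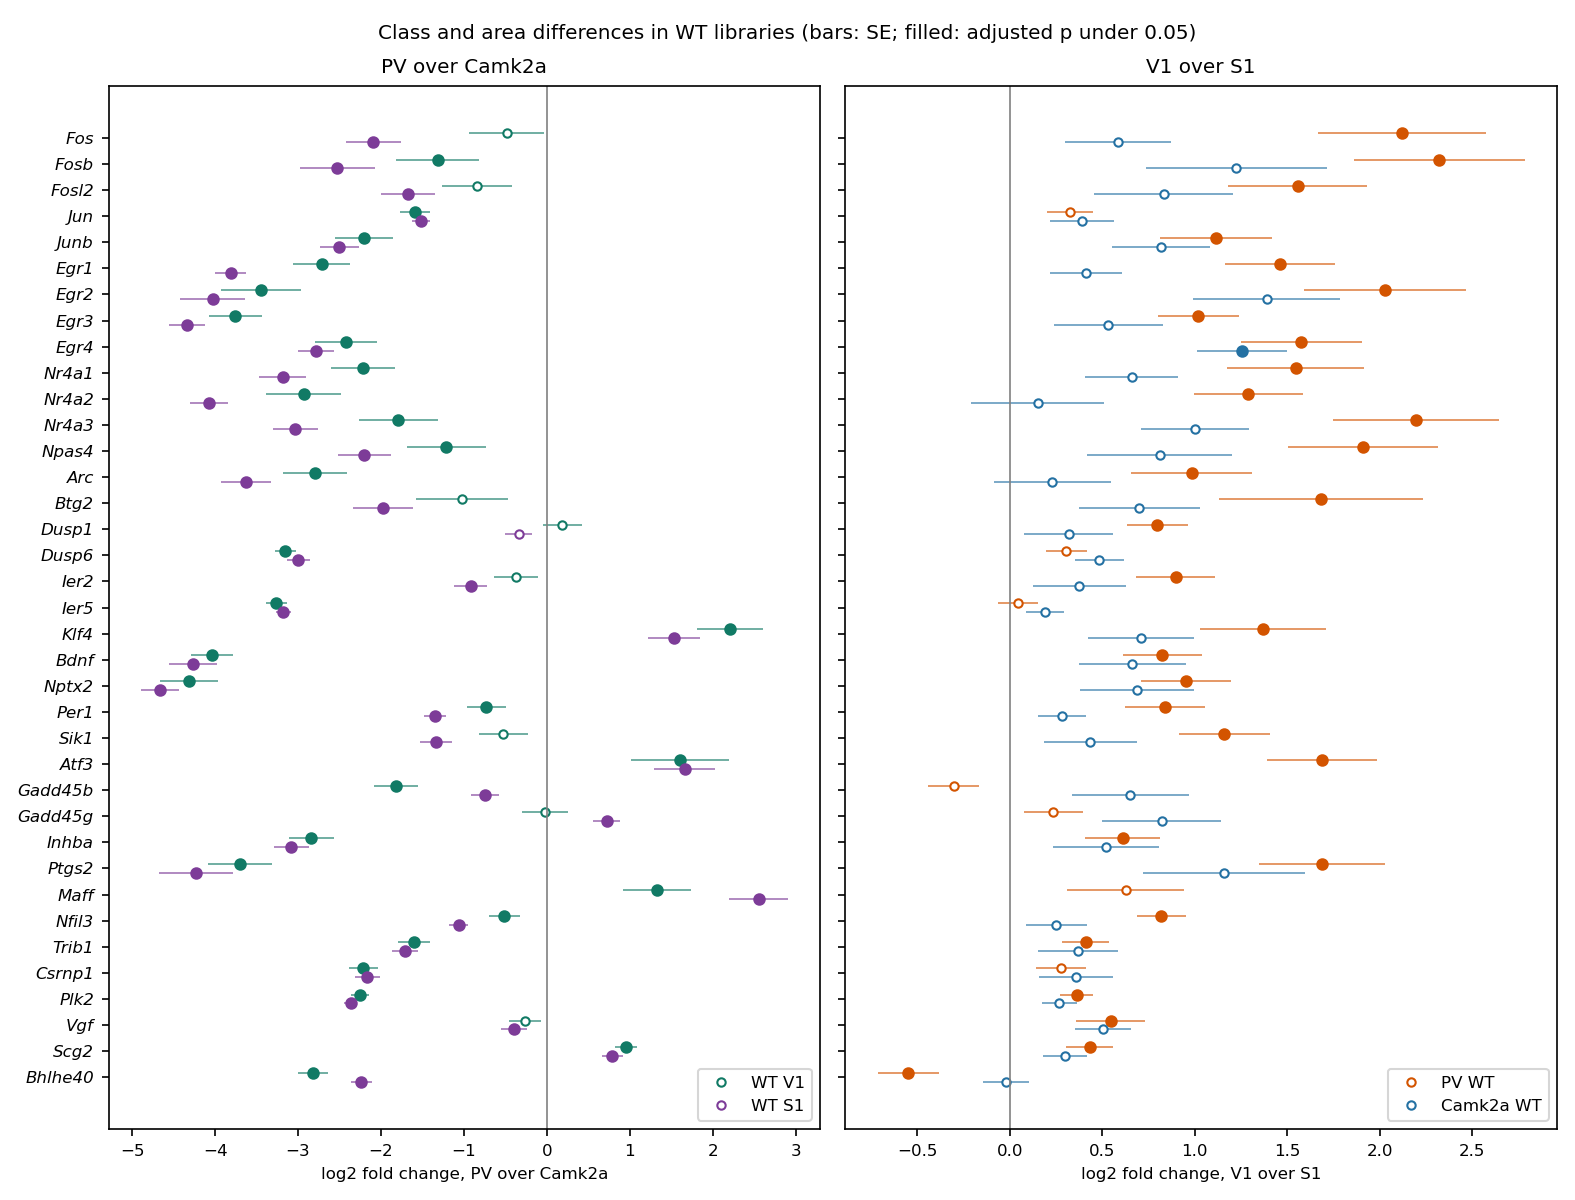
Left, log2 fold change, PV over Camk2a, of each member in WT V1 and WT S1. Right, log2 fold change, V1 over S1, in PV WT and Camk2a WT (bars are SE, filled points have an adjusted p under 0.05). Nptx2, Bdnf and Egr3 lie farthest to the left in the class panel, Fos in V1 lies near 0 at -0.48, and PV values for Fosb (2.32), Nr4a3 (2.20) and Fos (2.12) lie farthest to the right in the area panel.

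Between areas, V1 was above S1 for most members in PV interneurons. In PV WT libraries 29 of 37 members were higher in V1, against 10.7% of all genes called higher, and 1 was lower, against 9.95%. The median log2 fold change, V1 over S1, was 0.95, against 0.01 over all genes. Fosb had 2.53, 41.6 and 75.7 CPM in V1, against 4.04, 6.04 and 28.1 CPM in S1 (log2 fold change 2.32, SE 0.46, adjusted p 0.00642), with 9 of 10 V1 libraries above the S1 mean. Nr4a3, an orphan nuclear receptor, had 2.94, 27.8 and 76.4 CPM in V1, against 3.46, 6.48 and 12.9 CPM in S1 (log2 fold change 2.20, SE 0.45, adjusted p 0.00668). Fos, whose levels are given above, had 2.12 (SE 0.45, adjusted p 0.00723), with 9 of 10 V1 libraries above the S1 mean. For these genes the lowest V1 library and the highest S1 library were both those of P22. Egr2 had 2.03 (SE 0.44, adjusted p 0.00709), Npas4 1.91 (SE 0.40, adjusted p 0.00705), Nr4a1 1.55 (SE 0.37, adjusted p 0.0117) and Egr1 1.46 (SE 0.30, adjusted p 0.00668). Arc had 0.98 (SE 0.33, adjusted p 0.0415) and Bdnf 0.83 (SE 0.21, adjusted p 0.0127). Bhlhe40 went the other way. It had 28.3, 42.4 and 84.0 CPM in V1, against 37.8, 72.0 and 79.6 CPM in S1 (log2 fold change -0.55, SE 0.17, adjusted p 0.0275, and an adjusted p of 0.0503 with the animal as a block).

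In PV KO libraries 17 of 37 members were called higher in V1, against 3.47% of all genes, and 1 was lower, against 4.09%, with a median of 0.77. Egr2 had 0.195, 2.09 and 9.38 CPM in V1, against 0.160, 0.596 and 1.49 CPM in S1 (log2 fold change 2.37, SE 0.61, adjusted p 0.0341). Ptgs2 had 1.75 (SE 0.34, adjusted p 0.0277), Nr4a3 1.99 (SE 0.56, adjusted p 0.0435) and Npas4 1.68 (SE 0.43, adjusted p 0.0338). Fos had 2.10 (SE 0.62, adjusted p 0.0496), with 8 of 10 V1 libraries above the S1 mean, and its adjusted p was 0.0533 with low-count genes kept in and 0.056 with no sex term. Bhlhe40 was again lower in V1, at -0.57 (SE 0.13, adjusted p 0.0297), with 10 of 10 V1 libraries below the S1 mean. Egr1 at 1.32 (SE 0.45, adjusted p 0.0724), Arc at 0.77 (SE 0.41, adjusted p 0.22) and Bdnf at 0.48 (SE 0.19, adjusted p 0.101) did not pass. With the animal as a block 0 members and 0 genes were called in PV KO, and Fos had 1.56 (adjusted p 0.0767). With the block and without P9, P22 and P24 33 members were called, against 4617 of 16130 genes, and Fos had 2.10 (adjusted p 0.00022). Those animals were picked by area scores, which favours an area difference, so nothing is concluded from the calls without them. In PV WT the block called 29 members with all animals, against 4243 of 15964 genes. Without P9, P22 and P24 it called 35, against 6729 of 16013 genes. In PV WT 5 of 8 excitatory (median over the list 0.34), 5 of 7 astrocyte (0.49), 4 of 8 vascular (0.60) and 3 of 7 microglial markers (0.47) were also higher in V1. These counts stand against 10.7% of all genes. Of 9 PV interneuron markers 5 were lower in V1 and 1 higher (-0.2). In PV KO 0 of 8 excitatory (0.10), 2 of 7 astrocyte (0.44), 0 of 8 vascular (0.375) and 2 of 7 microglial markers (0.366) were higher, against 3.47% of all genes. Of 9 PV interneuron markers 4 were lower there and 1 higher (-0.084). The part of other cells in the members' difference was not tested.

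In Camk2a neurons V1 was above S1 by estimate for 34 of 35 members in WT and 33 of 35 in KO, and few passed the test. In WT only Egr4 was called higher in V1, 1 of 35 members, against 0.256% of all genes. Egr4 had 65.2, 98.4 and 193 CPM in V1, against 29.5, 50.4 and 83.5 CPM in S1, with 8 of 8 V1 libraries above the S1 mean (log2 fold change 1.25, SE 0.24, adjusted p 0.0452). The median over the list was 0.52, against -0.01 over all genes, and 18 had an unadjusted p under 0.05, against 22.8% of all genes. Without C24, the animal whose area scores went against its labels, 16 members were called, against 3405 of 15614 genes. Bdnf was among them at 1.07 (adjusted p 0.000603), while with C24 it had 0.66 (SE 0.29, adjusted p 0.185). Leaving out C24 for its area scores favours an area difference, so nothing is concluded from the calls without C24. Without C3, C18 and C19 0 members were called, and the adjusted p of Egr4 was 0.318. With the animal as a block 0 members were called, against 7 of 15615 genes. With the block and without C24 26 were called, against 5263 of 15607 genes. In KO 8 of 35 members were called higher, against 6.42% of all genes, with a median of 0.48, against 0.00. Jun had 48.3, 54.8 and 62.3 CPM in V1, against 26.6, 32.0 and 39.1 CPM in S1, with no overlap (log2 fold change 0.77, SE 0.092, adjusted p 6.29e-05). Ptgs2 had 17.8, 21.5 and 66.3 CPM in V1, against 9.74, 12.4 and 16.8 CPM in S1, also with no overlap (log2 fold change 1.23, SE 0.30, adjusted p 0.0171). The others were Egr2 at 1.69 (SE 0.48), Nr4a3 at 0.97 (SE 0.26), Egr4 at 0.74 (SE 0.20), Scg2 at 0.47 (SE 0.11), Vgf at 0.45 (SE 0.11) and Plk2 at 0.31 (SE 0.090). With the block 20 members were called in KO, against 3276 of 15697 genes. Fos had 0.58 (SE 0.29, adjusted p 0.239) in WT and 0.57 (SE 0.31, adjusted p 0.288) in KO, and 0.62 (adjusted p 0.0308) in KO with the block.

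A direct test of whether the area difference was unequal in PV and Camk2a cells was added after the data were seen. In WT 0 of 37 members passed it with edgeR, against 1.54% of all genes, 8 had an unadjusted p under 0.05, against 17.8% of all genes, and DESeq2 called 0. The difference, PV minus Camk2a, was positive for 28 and negative for 9 members, with a median of 0.47 log2 units, and without C24 for 22 and 15, with a median of 0.15. It was 1.53 (SE 0.56, adjusted p 0.141) for Fos, 1.05 (SE 0.37, adjusted p 0.132) for Egr1 and 0.16 (SE 0.36) for Bdnf. Without P9, P22 and P24 4 members were called, against 1068 of 17017 genes. Fos then had 1.87 (adjusted p 0.00644) and Egr1 1.20 (adjusted p 0.013). With the animal as a block 0 members were called, against 257 of 17102 genes. With the block and without P9, P22, P24 and C24 16 were called, against 3017 of 17156 genes, and Fos had 1.77 (adjusted p 0.000638). These animals were picked by area scores, so nothing is concluded from the calls without them. In KO 1 member passed, against 4.06% of all genes, namely Gadd45b, whose difference was -0.93 (SE 0.24, adjusted p 0.0177). The block called 3 members in KO, against 1043 of 17197 genes, and 10 without P9, P22 and P24, against 1850 of 17105 genes. Gadd45b was among them in both. Gadd45b averaged 7.43 ± 1.32 CPM in PV KO V1 and 8.99 ± 1.78 CPM in PV KO S1 (SD), a log2 fold change of -0.27 (SE 0.11). In Camk2a KO it averaged 15.3 ± 6.24 CPM in V1 and 9.78 ± 2.06 CPM in S1, a log2 fold change of 0.60 (SE 0.20). The mean was thus lower in V1 than in S1 in PV KO cells and higher in V1 in Camk2a KO cells, but neither difference was called within its class. The Camk2a KO V1 median was 13.34 CPM, and C14 stood apart there at 27.75 CPM, with the next library at 14.39 CPM. The test was not repeated without C14.

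Within groups most members varied together from library to library. Of 666 pairs of members, 630 had a positive Pearson r over the 69 libraries after the mean of each of the 8 groups was taken off log2(CPM + 0.5), and the median r was 0.495. Without P9, P22, P24 and C24 615 were positive over 61 libraries, with a median r of 0.446. These r are descriptions, since an animal's libraries share handling and depth. The share of positive pairs among other genes was not computed, so the counts are not read as particular to the list. The closest pairs were Fosb and Fosl2 (0.94), Junb and Ier2 (0.93) and Fos and Egr1 (0.93). Egr4 followed the mean of the other members most closely (0.90), ahead of Fosb (0.89), Egr1 (0.88) and Fos (0.88). Gadd45b was nearest to Gadd45g (0.81), Vgf to Scg2 (0.77), Trib1 to Csrnp1 (0.775) and Bdnf to Ptgs2 (0.84), while Ptgs2 was nearer to Fosl2 (0.86). Bhlhe40 (-0.04) and Jun (0.18), members called lower in Camk2a KO libraries, followed the mean of the others least. The low value of Bhlhe40 rested on the animals above, since it was 0.515 without P9, P22, P24 and C24, when that of Jun was 0.07. The genes outside the list with the highest r to its mean were the lncRNA 1700016P03Rik (0.84), the phosphatase Dusp5 (0.83), Rbm24 (0.79), the demethylase Kdm6b (0.78), Arid3b (0.78), Sox8 (0.77), Midn (0.77), Klf10 (0.76), Erf (0.76) and Rnf39 (0.75). In PV WT V1 1700016P03Rik averaged 6.44 CPM, against 1.68 CPM in PV WT S1.

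**Figure D4:**
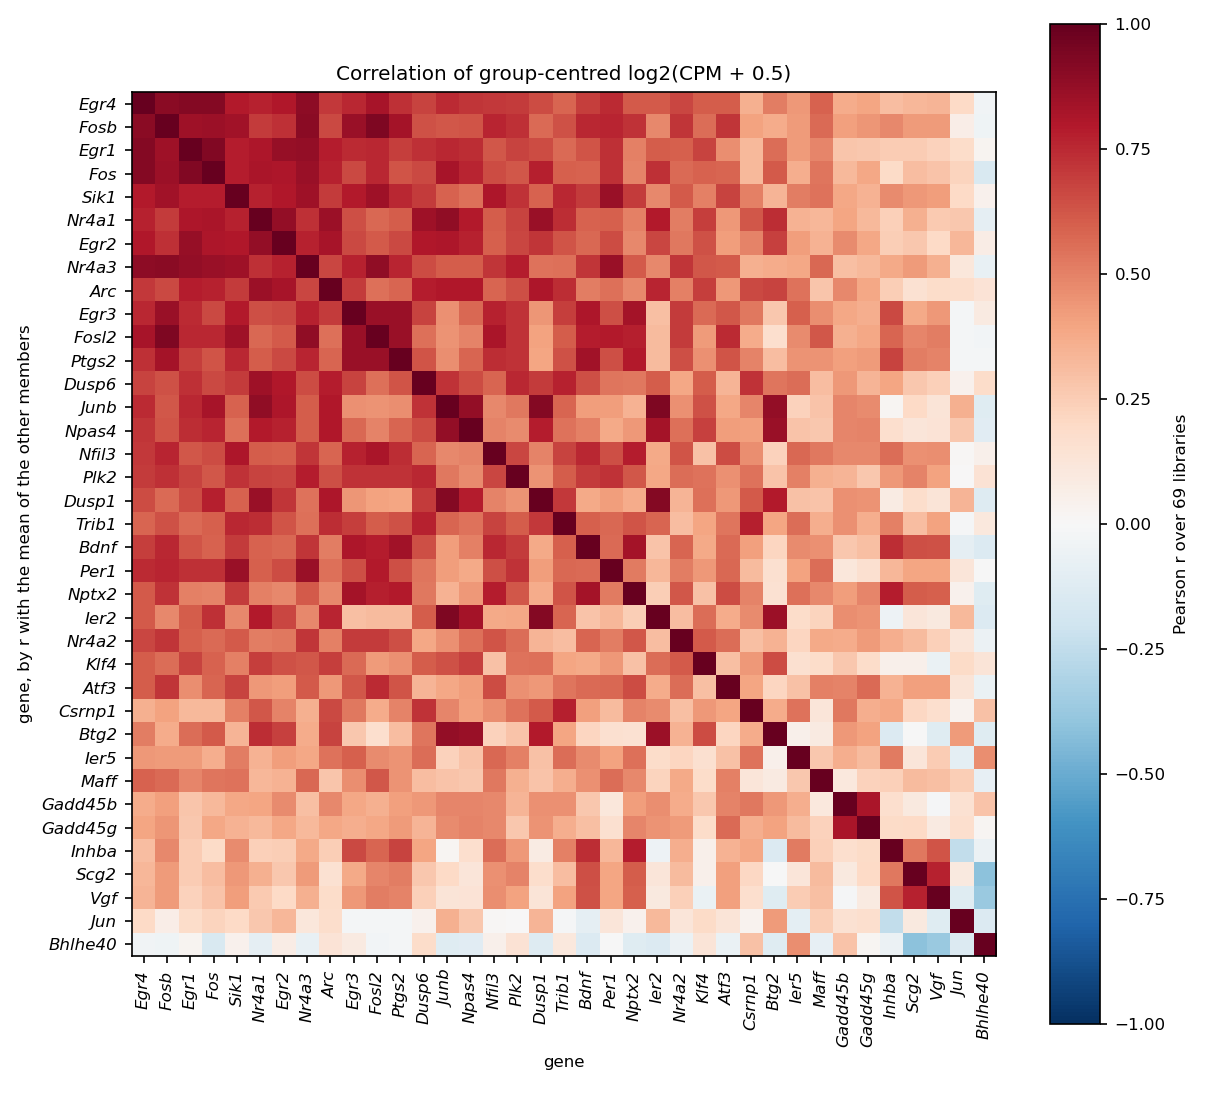
Pearson r between each pair of the 37 members over 69 libraries, after group means were taken off log2(CPM + 0.5), with genes ordered by their r with the mean of the other members. Egr4, Fosb, Egr1, Fos, Sik1, Nr4a1 and Egr2 are among the genes at the strong end, and Bhlhe40, Jun, Vgf and Scg2 stand at the weak end.

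The relation between an animal's V1 level and its S1 level was tested for 10 genes in each class over 19 PV and 13 Camk2a animals with both libraries, as deviations from the group means of log2(CPM + 0.5), with permutation tests adjusted over the 20 relations. Arc had the highest r of the 10 genes in both classes with all animals, with r = 0.89 and rho = 0.86 in PV (adjusted permutation p 0.0002 and 0.0006, and for r an unadjusted 1e-05, the smallest that the permutations can give) and r = 0.88 and rho = 0.84 in Camk2a (adjusted permutation p 0.002 and 0.00733). Without the 2 animals farthest in V1, r for Arc was 0.83 and 0.80. Btg2, an antiproliferative factor, had r = 0.83 and rho = 0.63 in PV (adjusted permutation p 0.002 and 0.027, r = 0.59 without 2 animals). Dusp1, a phosphatase that switches off MAP kinases, had r = 0.83 and rho = 0.84 in Camk2a (adjusted permutation p 0.0054 and 0.00733, r = 0.77). Npas4 and Junb had r = 0.61 in PV (adjusted permutation p 0.0252 for both). Fos in PV had r = 0.24 and rho = 0.46 (adjusted permutation p 0.419 and 0.105), and r = 0.69 without the 2 animals farthest in V1. In PV r was -0.17 for Bdnf and -0.14 for Nptx2 (adjusted permutation p 0.544 and 0.58), and 0.28 and 0.50 without P9, P22 and P24 (adjusted permutation p 0.313 and 0.0803). Without P9, P22 and P24 the relation for Fos in 16 PV animals was 0.88 (adjusted permutation p 0.00103), and Junb had the highest r in PV, 0.96. Without these and C3, C18, C19 and C24 Nptx2 had the highest r in Camk2a, 0.93 in 9 animals, and 12 of the 20 relations passed, against 6 with all animals. Leaving out animals whose areas looked exchanged can itself raise r, so nothing is concluded from the values without them. The relation was not tested for genes outside the list, so it is not read as particular to these members. Across genes outside the list, the deviations of an animal's 2 libraries had a median r of 0.447 over 32 animals, with 27 above 0.1.

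**Figure D5:**
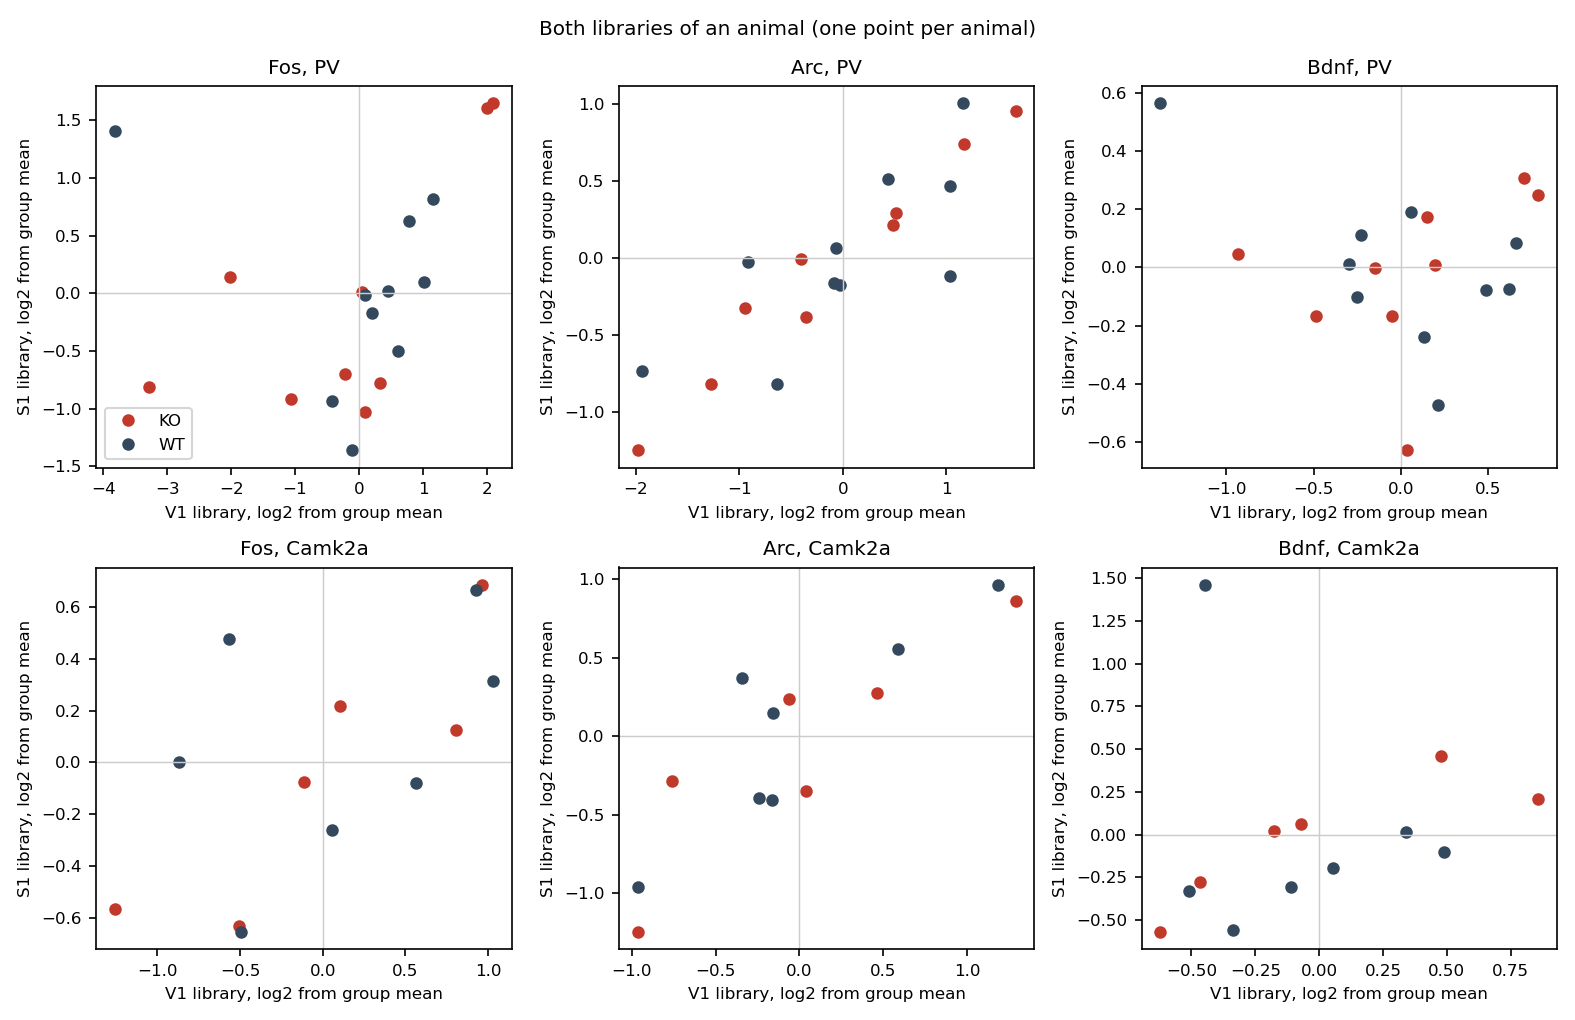
Deviation from the group mean of log2(CPM + 0.5) in the V1 library (x) and the S1 library (y) of each animal for Fos, Arc and Bdnf in PV and Camk2a cells, with KO and WT animals in separate colours. Arc points follow a line in both classes (r of 0.89 in PV and 0.88 in Camk2a), while PV points for Fos include animals with low V1 and higher S1 values.

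The pathway above these genes was followed through 30 genes of signalling and transcription, and the wider response through 50 other activity-regulated genes. In PV cells edgeR called none of the 30, with medians of -0.035 in V1 and -0.022 in S1. In Camk2a V1 1 of them was higher in KO, the SRF partner Elk1 (log2 fold change 0.32, SE 0.067, adjusted p 0.0347), against 0.62% of all genes called higher. In Camk2a S1 4 were higher, against 1.99% of all genes. They were Elk1 (0.30, SE 0.055, adjusted p 0.00744), the activity-dependent factor Mef2a (0.24, SE 0.055, adjusted p 0.0228), the CREB kinase Rps6ka5 (0.55, SE 0.13, adjusted p 0.0295) and the calcineurin subunit Ppp3cb (0.17, SE 0.042, adjusted p 0.0351). Of the 50 other activity-regulated genes 48 were tested in PV V1, with 39 estimates below 0, a median of -0.11 and 0 called. In Camk2a V1 41 of 48 were below 0, with a median of -0.27 and 0 called, and in Camk2a S1 33 of 48, with 1 called, Klf6, which was higher in KO (0.36, SE 0.095, adjusted p 0.0413). In PV WT 16 of 47 were higher in V1 than in S1, against 10.7% of all genes, and 6 were lower, against 9.95%. The 16 included the synaptic scaffold Homer1, the pentraxin Nptx1 and the phosphatase Dusp5.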

How the data were processed

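The authors deposited a table of estimated counts per gene for 69 libraries, of which 71.1% of values were not whole, with totals between 27.64 and 49.11 M. The submitters' processing notes name STAR, Salmon, limma and mm10, and their roles and versions are not given in the sources used here. Per the labels' protocols, HA-tagged ribosomes were precipitated with cycloheximide present, and such precipitates keep some RNA of untagged cells. The labels name no molecular identifiers.

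Estimated counts were rounded to whole numbers. Genes were named through GENCODE M21 (17614 of 17634). Each comparison was fitted on its own libraries with edgeR 4.0.16 (R 4.3.3), using filterByExpr, TMM scaling, a sex term, the quasi-likelihood test and Benjamini-Hochberg adjustment over all genes tested, called at an adjusted p under 0.05. CPM are TMM-scaled. Where an animal's libraries were summed, each animal counted once. DESeq2 1.42.0, limma-voom (limma 3.58.1), other scaling, no filter, no sex term, a replicate block and left-out animals were alternatives. The scripts were tested on simulated data.

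Fos, Egr1, Arc, Npas4, Nr4a1 and Bdnf were named in each main comparison, with every called member or, where none was called in a genotype test, the 5 of smallest p, and in class and area tests the 5 largest called changes in each direction. Members named beside these were chosen after their values were seen. The members and lists were chosen with earlier results of these data known. V1 and S1 libraries were paired through shared animal codes. Over 32 animals the deviations of the 2 libraries from their group means had a median r of 0.447 (-0.204 to 0.861), with 27 above 0.1.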

Additional observations from a re-analysis of the deposited data

Results flagged for a closer look

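A library stood apart from its group in 44 of 296 combinations of member and group (14.9%). The rule flags about 5% of normally distributed values by chance. It was applied to CPM that were not put on a log scale, so no excess is read from the share. Most of them came from a few animals, so they are not independent. All values are levels in CPM, with the next library of the group in brackets where it is given.

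The S1 library of the Camk2a WT animal C24, which lay on the V1 side of the area score, stood apart as the highest of its group for 9 members, and was the highest for 22 in all. It had 137.1 for Bdnf (next 50.01), 49.81 for Ptgs2 (next 14.21), 96.99 for Fosb, 110.1 for Nr4a3, 193.0 for Nptx2, 38.66 for Inhba, 200.6 for Dusp6, 426.3 for Plk2 and 371.2 for Scg2. The V1 library of the Camk2a KO animal C14 stood apart as the highest of its group for 7 members, and was the highest for 25 in all. It had 123.5 for Fosb (next 57.57), 67.6 for Egr2 (next 25.97), 66.3 for Ptgs2, 55.92 for Inhba, 93.37 for Trib1, 27.75 for Gadd45b and 0.9307 for Atf3. Among Camk2a KO S1 libraries C4 was highest for Egr1 (1340), Egr4 (61.37) and Nr4a3 (51.92), and C7 for Nr4a2 (116.9). In Camk2a WT V1 C15 was highest for Klf4 (0.7232).

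Among PV KO S1 libraries P5 was highest for Junb (31.94), Nr4a1 (41.94), Npas4 (6.75), Btg2 (4.837) and Ier2 (12.94). P9, on the V1 side of the area score there, was highest for Vgf (513.6) and Scg2 (589.8), and lowest for Ier5 (13.59) and Bhlhe40 (34.46). Among PV WT S1 libraries P1 was highest for Nr4a1 (48.14), Npas4 (8.724) and Ier2 (14.02). P22, also on the V1 side there, was highest for Fosb (28.1), Fosl2 (82.22), Nptx2 (8.666) and Sik1 (22.9), and lowest for Bhlhe40 (37.84). Its PV WT V1 library, on the S1 side, was highest for Bhlhe40 (83.97). In PV KO V1 P6 was highest for Fosl2 (183.0), Maff (2.378) and Nfil3 (16.12), and P5 for Klf4 (5.752). In PV WT V1 P1 was highest for Klf4 (5.272).

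The area difference of Gadd45b was unequal between the classes in KO, with a PV minus Camk2a difference of -0.93 log2 units (SE 0.24, adjusted p 0.0177 in edgeR's test). The V1 library of C14, flagged above for this gene, was part of that test.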

How the results depend on the processing

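With other size factors, no filter or no sex term, most counts stayed within 1.5 times the values reported, and no estimate that was called in either fit reversed its direction. Estimates of named members that were called in neither fit changed sign in 29 of 898 fits without a single animal and in 17 of 614 other alternatives, most of them for Npas4 and Bdnf. Of the checks on named members 2109 kept their side of the threshold, 65 lost it and 37 gained it. The causes of the changes were not tested. DESeq2 called more genes than edgeR between KO and WT, with 113 in PV V1 (edgeR 31), 308 in PV S1 (122), 870 in Camk2a V1 (222), 1450 in Camk2a S1 (641), 469 in PV over both areas (234) and 1731 in Camk2a over both areas (688). It called 7, 2 and 5 members in Camk2a S1, PV over both areas and Camk2a over both areas. For the genotype effect, PV minus Camk2a, it called 267 genes (146) and 1 member, and for V1 minus S1 in Camk2a 1 gene (0). Between V1 and S1 it called 2058 genes in PV KO (1218), and 1371 genes (56) and 6 members (1) in Camk2a WT. For the area effect, PV minus Camk2a, it called 668 genes in WT (263) and 2 members in KO (1). Without the sex term 990 genes were called between KO and WT in Camk2a S1 and 385 between V1 and S1 in Camk2a WT. limma-voom with the animal as a random block called 407 genes in PV over both areas, and 1948 genes and 8 members in Camk2a.

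Without P9, P22 and P24 81 genes were called between KO and WT both in PV S1 and in PV over both areas, and 74 for the genotype effect, PV minus Camk2a. Between V1 and S1 5060 genes were then called in PV WT (3291), and 3479 genes and 29 members in PV KO (18). For the area effect 1068 genes and 4 members were called in WT and 3 members in KO. Without C3, C18 and C19 15 genes and 0 members were called in Camk2a V1, 299 genes in Camk2a S1, and 131 genes and 1 member in Camk2a over both areas. The genotype effect, PV minus Camk2a, then had 92 genes, the area effect in WT 83, and V1 against S1 in Camk2a WT 0 genes and 0 members. Without C24 351 genes and 2 members were called in Camk2a V1, 1634 genes in Camk2a S1 and 1347 in Camk2a over both areas. The genotype effect, PV minus Camk2a, then had 268 genes and 1 member, V1 against S1 in Camk2a WT 3405 genes and 16 members, and the area effect in WT 992 genes and 1 member. Of the V1 to S1 relations over animals 12 passed without all 7 of these animals, against 6. P9, P22, P24 and C24 were picked by area scores, so area counts and relations without them are descriptions only.

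With the animal as a replicate block, V1 against S1 gave 0 genes and 0 members in PV KO, 7 genes and 0 members in Camk2a WT, and 3276 genes (2058) and 20 members (8) in Camk2a KO. The area effect in KO had 3 members with the replicate block. The replicate block without P9, P22 and P24 gave 6729 genes in PV WT, 4617 genes and 33 members in PV KO, and 1850 genes and 10 members for the area effect in KO. The replicate block without C24 gave 5263 genes and 26 members in Camk2a WT. For the area effect in WT the replicate block without P9, P22, P24 and C24 gave 3017 genes and 16 members.

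Leaving out single animals, tried for KO against WT, gave between 20 (without P26) and 56 (without P22) genes in PV V1, 80 (P24) and 177 (P22) in PV S1, 28 (C16) and 474 (C14) in Camk2a V1, 253 (C16) and 1634 (C24) in Camk2a S1, 144 (P9) and 255 (P3) in PV over both areas, and 235 (C7) and 1347 (C24) in Camk2a over both areas. Called members lay between 0 and 0 in PV V1 and PV S1, between 0 and 2 in Camk2a V1, 1 (C5) and 5 (C14) in Camk2a S1, 0 and 1 (P5) in PV over both areas, and 0 (C5) and 6 (C14) in Camk2a over both areas. Atf3, Maff and Klf4 had too few counts in Camk2a cells for small changes to be resolved.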
